A study of Drosophila melanogaster with 20 samples.

Results

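The genes of the cytosolic ribosomal proteins were followed in RNA of whole *Drosophila melanogaster* embryos from 10 groups. A gene was taken if it is protein-coding and its FlyBase symbol starts with RpL or RpS, and the gene stubarista (sta) was added, which encodes the small subunit protein RpSA. Of 93 such genes, 90 had a mean of at least 10 expected counts over the 20 libraries, out of 11154 genes tested in all. The other 3 were RpL10Aa, listed at 0 in every library, RpS28a and RpS28-like. Symbols that end in a, b or -like mark 18 of the 90 genes, called suffix copies here, and the other 72 are called main copies. The large subunit had 43 main and 6 suffix copies, the small subunit had 26 main and 11 suffix copies, and the stalk had 3 main copies (RpLP0, RpLP1 and RpLP2) and 1 suffix copy (RpLP0-like).

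A ribosome is built from a small subunit, which reads the mRNA, and a large subunit, which joins the amino acids, and each is a scaffold of ribosomal RNA that carries ribosomal proteins. The stalk on the large subunit is made of the proteins P0, P1 and P2 and recruits translation factors. Most of these genes are short and very highly expressed, share a pyrimidine-rich start site and depend on gene dose, and loss of a copy of many of them gives the slow, thin-bristled Minute flies. Some of the proteins are encoded by a pair of genes in flies, and a number of the second copies, such as RpS10a, RpS19b and RpL22-like, are known from the germ line.

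The study asked how Wnt4, a secreted Wnt ligand, and the receptor-like proteins Off-track (otk, named otk1 in the labels) and Off-track 2 (otk2) act on one another in the embryo. The transgenes were switched on by a maternal GAL4 driver combined with daughterless GAL4, so that they act in the egg and in most cells of the embryo. The groups were UAS-wnt4, UAS-otk1 and both together (overexpression), otk2 RNAi, wnt4 RNAi and otk1 RNAi (knockdown), and the 3 combinations otk1 RNAi wnt4 RNAi, otk2 RNAi wnt4 RNAi and otk1 RNAi otk2 RNAi, with WT as the comparison, and there were 2 libraries in each group. Embryos of mixed stages, laid over 24 h at 25 °C, were pooled and their total RNA was read in pairs of 151 bases. Whether both libraries of a group stem from separate embryo collections is not said in the labels, so a p-value measures only the spread between these libraries.

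The targeted genes were checked in every library, as CPM (counts scaled to the library size, here by edgeR's trimmed mean of M-values, TMM). Wnt4 was at 3050 and 2463 CPM in UAS-wnt4 and at 126 and 107 CPM in WT, and otk was at 2194 and 1984 CPM in UAS-otk1 and at 199 and 178 CPM in WT. In otk1 RNAi, otk was at 56.0 and 46.0 CPM, and in otk2 RNAi, otk2 was at 28.4 and 23.6 CPM, against 67.5 and 61.6 CPM in WT. Wnt4 went against the label in wnt4 RNAi, with 159 and 143 CPM. It was below WT in otk1 RNAi wnt4 RNAi (76.6 and 89.2 CPM) and in otk2 RNAi wnt4 RNAi (74.9 and 82.9 CPM). The groups with the same otk transgene and no wnt4 RNAi stood at 90.1 and 89.4 CPM (otk1 RNAi) and at 84.5 and 62.9 CPM (otk2 RNAi), and in edgeR's quasi-likelihood test the log2 difference of Wnt4 was -0.11 ± 0.15 (SE, adjusted p = 0.66) against otk1 RNAi and 0.10 ± 0.15 (adjusted p = 0.71) against otk2 RNAi. Against WT the log2 fold change of Wnt4 in the same test was 0.37 ± 0.15 (adjusted p = 0.054) in wnt4 RNAi, -0.49 ± 0.15 (adjusted p = 0.015) in otk1 RNAi wnt4 RNAi and -0.56 ± 0.15 (adjusted p = 0.010) in otk2 RNAi wnt4 RNAi. These 3 groups are therefore named below as the libraries labelled with wnt4 RNAi. Between 30762928 and 38843051 counts per library fell on the genes tested. No 2 libraries held identical values.

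As TPM (transcripts relative to the library, per length, the scale for levels between genes), the 72 main copies had a median of 3902, and 71 of them lay between 1761 and 39793. The most abundant mRNAs were those of very short proteins of the large subunit, with means of 39793 TPM for RpL41, 16217 TPM for RpL29 and 14362 TPM for RpL39. Their effective lengths, the number of positions at which a fragment fits, were only 72.7, 83.6 and 44.8 bases, and for RpL39 this length ran between 37.2 and 49.9 bases over the libraries, so these 3 levels carry a large length correction. RpL37-2 is a main copy by its symbol only, at 9.13 TPM, while RpL37-1 was at 4224 TPM. The stalk genes stood at 1827 TPM (RpLP0), 6128 TPM (RpLP1) and 6992 TPM (RpLP2), that is, P1 and P2, which sit on P0 as dimers, above P0.

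The 18 suffix copies spread more widely, around a median of 1178 TPM. In 9 of them the mean was over 1000 TPM, and most of these are the main form of their protein in the embryo, among them RpS28b (6193 TPM), RpS10b (4591 TPM), RpS14a (3880 TPM), RpL10Ab (3721 TPM), RpL34b (3434 TPM), RpS19a (3389 TPM) and RpS15Aa (3152 TPM). The next 6 lay between 100 and 1000 TPM, with RpS14b at 821, RpL34a at 626, RpL24-like at 570, RpL7-like at 234, RpS15Ab at 176 and RpLP0-like at 163 TPM. The last 3, RpS19b (6.58 TPM), RpS10a (4.27 TPM) and RpL22-like (1.49 TPM), stood under 10 TPM.

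The 90 genes together held 15.3% and 15.9% of the counts of all genes tested in the libraries labelled otk1 RNAi wnt4 RNAi, 14.7% and 15.9% in UAS-otk1 UAS-wnt4, 15.7% and 14.6% in UAS-wnt4, 13.8% and 15.7% in otk2 RNAi, 13.6% and 12.9% in UAS-otk1, 14.1% and 13.6% in the libraries labelled wnt4 RNAi, 13.8% and 14.1% in otk1 RNAi, 12.8% and 13.7% in the libraries labelled otk2 RNAi wnt4 RNAi, 13.9% and 14.9% in otk1 RNAi otk2 RNAi, and 14.8% and 13.7% in WT. Both libraries labelled otk1 RNAi wnt4 RNAi lay above both WT libraries, which held for no other group, and both UAS-otk1 libraries lay below WT, as did both labelled otk2 RNAi wnt4 RNAi. In TPM the same genes made up 39.7% to 44.9% of a library. The suffix copies took 10.1% to 11.5% of the members' counts, highest in replicate 2 of the libraries labelled otk1 RNAi wnt4 RNAi. The TMM factors, by which the library total is multiplied before values are compared, were 0.825 to 0.946 in the 3 groups labelled with wnt4 RNAi and 1.00 to 1.08 in the others, so scaled values of these 3 groups are raised relative to their share of counts.

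**Figure D1:**
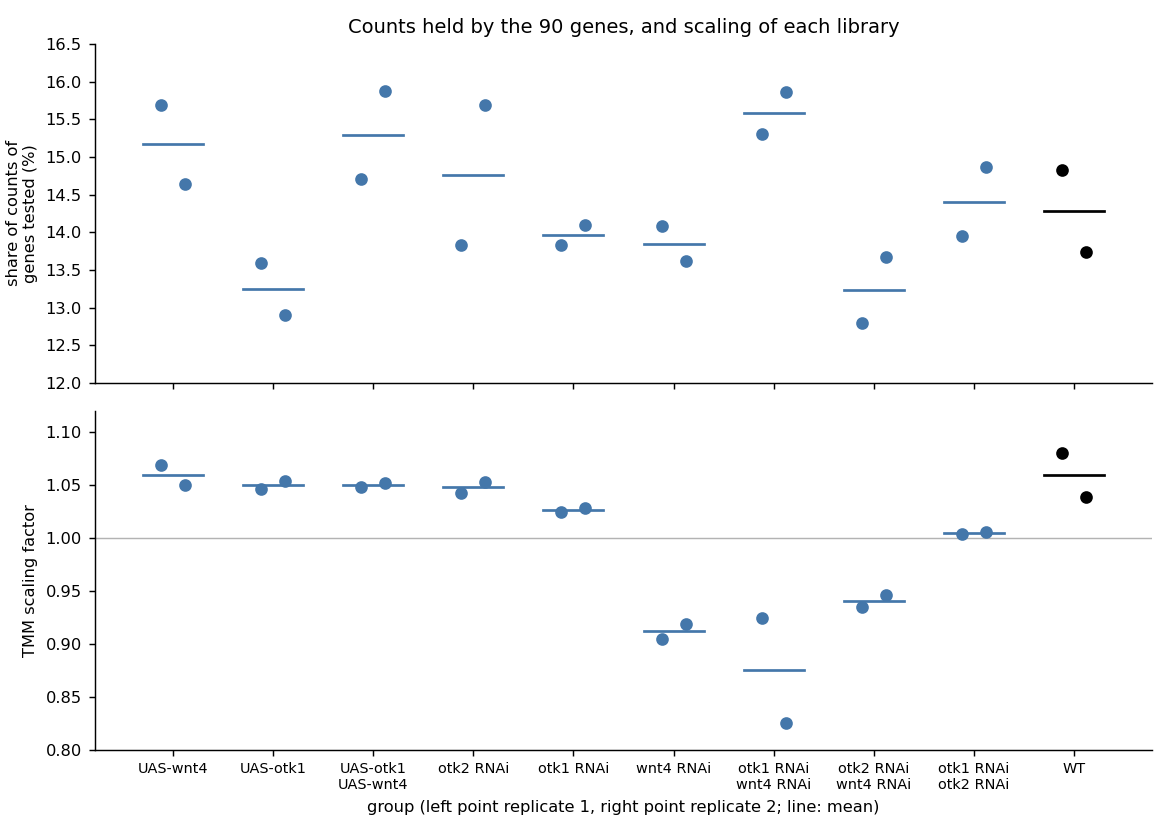
Upper panel: percent of the counts of all tested genes that fell on the 90 ribosomal protein genes, per library, for 10 groups of 2 libraries (points) with their mean (line). Lower panel: the TMM scaling factor of the same libraries. The shares run between 12.8% and 15.9%, and the factors of the 3 groups labelled with wnt4 RNAi lie at or under 0.946.

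All 90 members were shorter than the median tested gene, with a median effective length of 396 bases against 1586 bases over all genes tested. snoRNA genes, which guide ribosomal RNA modification and whose counts were removed, lie inside 29 members, 76 of them in all. Exons of 29 members overlap another gene, 25 on the other strand and 5 on the same strand. Whether the counting used strand is not stated, so reads of these pairs cannot be told apart. Fractional counts, the sign of reads shared with another gene, occurred in every library for 8 members, among them RpL22, RpL24, RpL3, RpL7-like, RpS14a, RpS14b and RpS9, and their values are uncertain to that extent. Being bulk RNA, the data cannot separate fewer cells of a type from less RNA per cell.

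Overexpression of Wnt4 or otk, and knockdown of otk2, left every ribosomal protein gene short of the threshold. In edgeR's quasi-likelihood test with Benjamini-Hochberg adjustment over all genes, 0 of the 90 members passed an adjusted p of 0.1 in UAS-wnt4, UAS-otk1, UAS-otk1 UAS-wnt4 and otk2 RNAi against WT. Of all genes tested, 0.61% were called in UAS-wnt4 (0.215% higher, 0.394% lower), 2.84% in UAS-otk1 (1.19% higher, 1.65% lower), 4.82% in UAS-otk1 UAS-wnt4 (1.35% higher, 3.47% lower) and 1.78% in otk2 RNAi (0.475% higher, 1.31% lower). DESeq2 called 0 members in each as well. At an unadjusted p under 0.05 there were 0 members in UAS-wnt4, 2 in UAS-otk1 (among them RpLP1), 4 in UAS-otk1 UAS-wnt4 (among them RpL36A, RpS15Ab and RpL37-2) and 1 in otk2 RNAi, these being named after their values were seen. The median log2 fold change of the members was 0.09 in UAS-wnt4, -0.10 in UAS-otk1, 0.13 in UAS-otk1 UAS-wnt4 and 0.05 in otk2 RNAi, beside values between -0.04 and 0.02 over all genes tested. In UAS-otk1 UAS-wnt4 both libraries lay above both WT libraries for 41 of the 90 members (45.6%) and for 27.5% of all genes, while in UAS-otk1 both lay below WT for 24 members (26.7%) and for 28.5% of all genes. Leaving out WT replicate 2 gave 2 calls each in UAS-otk1 and otk2 RNAi.

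The libraries labelled wnt4 RNAi showed higher RNA of 18 ribosomal protein genes and lower RNA of 1. These calls fell unevenly between main and suffix copies: 9 of 72 main copies and 9 of 18 suffix copies were higher. Over all genes tested, 29.7% were higher and 29.5% were lower (59.2% in all), so the share of members called (20% higher) stood below the background. Among the main copies that rose were RpS3A, a protein of the small subunit, and RpL4, RpS26, RpS9, RpL27A, RpS20 and RpS6, the target of S6 kinase. RpS3A had 3714 and 3295 CPM in the libraries labelled wnt4 RNAi and 2733 and 2636 CPM in WT, a log2 fold change of 0.38 ± 0.10 (SE) with an adjusted p of 0.0057 in edgeR's test. RpS26 showed 1859 and 2305 CPM there against 1504 and 1863 CPM in WT, and RpL4 had 2841 and 3531 CPM against 2144 and 2945 CPM, so that in both genes the groups overlapped, and RpL4 turned to -0.04 once the stage score described below was a covariate. The median log2 fold change was 0.15 in the main copies and 0.20 in the suffix copies, and under scaling by total counts alone the median of all members was -0.06, with 5 members higher and 7 lower. Without replicate 1 of the libraries labelled wnt4 RNAi 11 members were called in all, and 2 (RpL37-2 and RpS10a) were called once the stage score entered the fit.

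Of the 9 comparisons with WT, that of the libraries labelled otk1 RNAi wnt4 RNAi called the most ribosomal protein genes. There 67 of the 90 members were higher than in WT and 1 was lower, in edgeR's quasi-likelihood test under TMM scaling, and with scaling by total counts alone 20 were higher and 7 lower. Of all genes tested, 30.9% were higher and 31.4% were lower under TMM (62.2% in all). The median fold difference of the members was 1.33 (log2 0.41), beside a median log2 of -0.08 over all genes (a gap of 0.49), and under total counts alone the medians were 0.12 and -0.36 (again a gap of 0.49). Both libraries lay above both WT libraries for 76 members (84.4%) and for 35.2% of all genes tested.

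**Figure D2:**
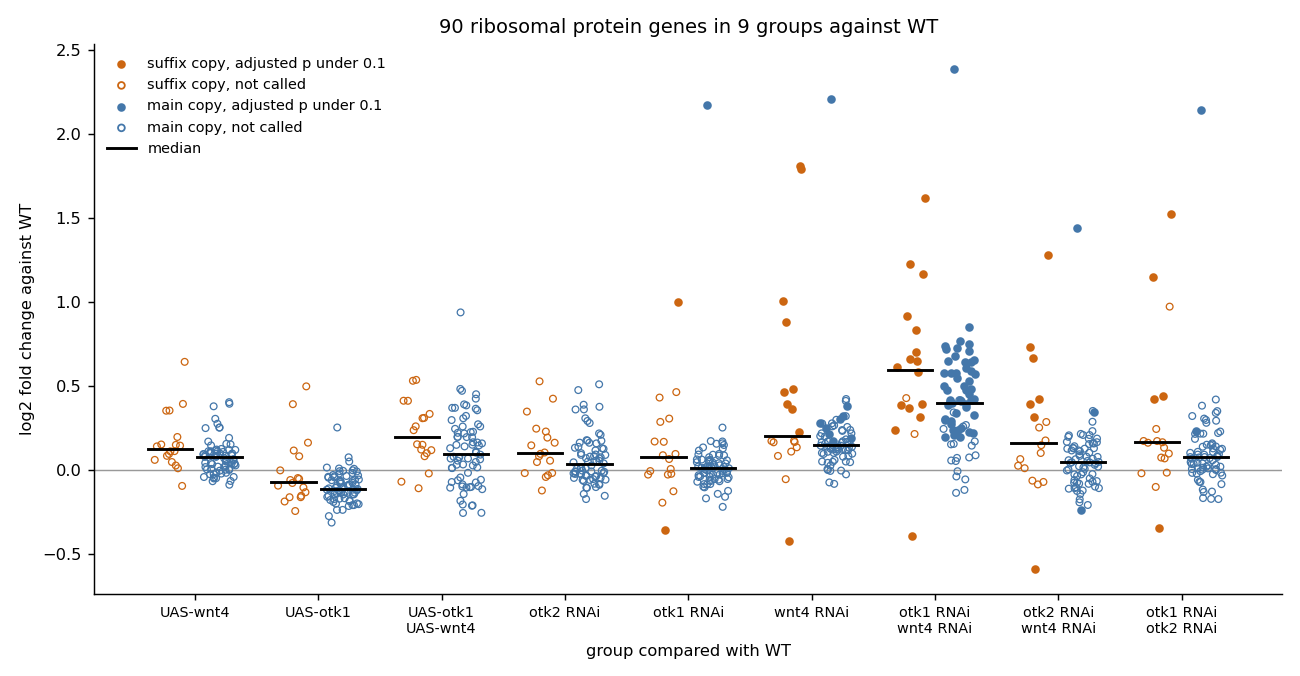
log2 fold change against WT (vertical axis) of each of the 90 genes in 9 groups (horizontal axis), with 18 suffix copies to the left of 72 main copies, filled points for an adjusted p under 0.1 in edgeR's quasi-likelihood test and lines for the median. Most points are filled in the otk1 RNAi wnt4 RNAi group only (67 higher and 1 lower), and none in the 4 groups on the left.

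Higher RNA was seen in both subunits of the ribosome and in the stalk. In the large subunit 29 of 43 main copies rose in the libraries labelled otk1 RNAi wnt4 RNAi, and their median log2 fold change was 0.34. RpL41, a peptide at the bridge between the subunits, had 3566 and 5015 CPM there and 2564 and 2194 CPM in WT, and RpL36 had 2267 and 3204 CPM against 1769 and 1435 CPM. Neither gene overlapped between the groups, and the log2 fold changes were 0.85 ± 0.27 (edgeR adjusted p = 0.015) and 0.77 ± 0.21 (adjusted p = 0.0063). Replicate 2 was the higher of the 2 libraries in both genes, and without it neither passed the threshold (0.59 for RpL41 and 0.51 for RpL36).

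In the small subunit 20 of 26 main copies were higher, with a median log2 fold change of 0.41. RpS23, which sits at the decoding centre, had 3553 and 5141 CPM in the libraries labelled otk1 RNAi wnt4 RNAi against 2878 and 2275 CPM in WT (0.75 ± 0.20, edgeR adjusted p = 0.0068), again with replicate 2 on top, and it was short of the threshold without that library (0.47). All 3 main stalk genes were higher: RpLP1 with 2913 and 2862 CPM against 2278 and 2035 CPM (0.42 ± 0.09, adjusted p = 0.0015), RpLP2 with 2913 and 4053 CPM against 2428 and 1910 CPM (0.68 ± 0.24, adjusted p = 0.026) and RpLP0 with 2013 and 2110 CPM against 1742 and 1797 CPM (0.22 ± 0.09, adjusted p = 0.046). None of the 3 overlapped between the groups. RpLP1 passed in all 4 fits that left out a library, and RpLP0 turned to -0.06 under total counts alone. RpL37-2 showed the largest fold difference of all members, and is described with the low copies.

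The members that did not pass in that comparison numbered 22, of which 20 were main copies. RpL23A had 2509 and 2103 CPM in the libraries labelled otk1 RNAi wnt4 RNAi and 2336 and 2725 CPM in WT (-0.13 ± 0.13), and RpL3, RpS4 and RpL36A lay between -0.05 and -0.01. These genes were named after their values were seen. The main copies spanned log2 fold changes of 0.22 (25th percentile) to 0.57 (75th percentile). Main copies under 400 bases of effective length had a median of 0.44 (32 of 40 higher), and those of 400 bases or more had a median of 0.27 (20 of 32 higher).

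The call counts leaned on replicate 2 of these libraries, which also had the lowest TMM factor (0.825) and 10.4% of its counts on the removed RNA types (ribosomal, mitochondrial, snoRNA and snRNA genes), against 8.40% in replicate 1 and 5.98% and 6.52% in WT. Without it 32 members were higher and 1 lower, and without replicate 1 of the same group 63 were higher and 1 lower. With only these 2 groups in the fit, 32 were higher and 0 lower. The part of these measures in the result was not tested.

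Set against otk1 RNAi alone, the libraries labelled otk1 RNAi wnt4 RNAi again had more ribosomal protein RNA, with 54 of 90 members higher and 0 lower (edgeR, adjusted p under 0.1). Of all genes tested 19.5% were higher and 11.7% lower (31.2% in all). Both comparisons use the libraries labelled otk1 RNAi wnt4 RNAi, and the median log2 fold change of the members was 0.38 here and 0.41 against WT. Against otk1 RNAi the trend on effective length over all genes (described below) had a median of 0.33 at the members' lengths. The members' median lay only 0.07 above it, with 58 of 90 above and 32 below. Higher were 43 of 72 main copies and 11 of 18 suffix copies. RpL37A, a zinc-binding protein of the large subunit, had 1107 and 1140 CPM in the libraries labelled otk1 RNAi wnt4 RNAi and 707 and 706 CPM in otk1 RNAi (0.67 ± 0.11, adjusted p = 0.0026), and passed in all 4 fits without a library. RpL15 had 2914 and 4286 CPM against 2419 and 1967 CPM (0.72 ± 0.21, adjusted p = 0.022), and failed without otk1 RNAi replicate 2 or without replicate 2 of otk1 RNAi wnt4 RNAi. The count was 20 without replicate 2 of otk1 RNAi wnt4 RNAi, 24 and 30 without replicate 1 and replicate 2 of otk1 RNAi, and 17 higher and 1 lower under total counts alone.

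Whether the difference in the libraries labelled with wnt4 RNAi depended on otk1 RNAi was tested as a difference of differences (otk1 RNAi wnt4 RNAi minus otk1 RNAi, less wnt4 RNAi minus WT). It passed for 8 members, 6 with a larger and 2 with a smaller value in the presence of otk1 RNAi, while 11.8% of all genes were higher and 7.93% lower (19.7% in all). For this term the trend on effective length over all genes had a median of 0.25 at the members' lengths. The members' own median was 0.19, with 40 of 90 above the trend and 50 below. The difference was largest for RpL37A on the positive side (0.69 ± 0.15, edgeR adjusted p = 0.028), which had 827 and 789 CPM in the libraries labelled wnt4 RNAi against 872 and 771 CPM in WT. Also among the 6 were RpS15Aa (0.62 ± 0.20), RpL12 (0.48 ± 0.16), RpL9 (0.42 ± 0.15) and RpL27 (0.33 ± 0.12), with adjusted p between 0.066 and 0.092. On the negative side were RpL37-2 and RpS10a, both already higher with otk1 RNAi alone. The count ran between 0 and 15 as each of the 8 libraries was left out, with 15 without WT replicate 2, 0 without WT replicate 1 or otk1 RNAi replicate 2, 1 without otk1 RNAi replicate 1, 2 without either library labelled wnt4 RNAi, and 5 and 3 without replicates 1 and 2 of otk1 RNAi wnt4 RNAi. The same test for otk2 RNAi called 0 members in edgeR and in DESeq2, with 5 at an unadjusted p under 0.05, all lower (among them RpL22-like, RpL36A, RpL37-2 and RpS20, named after their values were seen), and called 0.0807% of all genes (0.0448% higher and 0.0359% lower).

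In the remaining knockdown groups few ribosomal protein genes passed, and RpL37-2 and RpS10a were higher in each of the 3, all set against the same WT libraries. In otk1 RNAi against WT 2 members were higher (RpL37-2 and RpS10a) and 1 was lower, beside 21% of all genes higher and 24.5% lower. In otk1 RNAi otk2 RNAi 6 were higher (RpL37-2, RpS10a, RpS19b, RpL24-like, RpS10b and RpS20) and 1 was lower, beside 22.5% and 24.4% of all genes (46.8% in all). In the libraries labelled otk2 RNAi wnt4 RNAi 8 were higher (among them RpL37-2, RpS10a, RpS19b, RpL24-like, RpS10b, RpS3A and RpL7-like) and 2, RpL36A among them, were lower, beside 27.7% and 27% of all genes, and under total counts alone 3 were higher and 17 lower. The median log2 fold changes of all 90 members were 0.02, 0.08 and 0.06 in these 3 comparisons, beside values between -0.03 and 0.02 over all genes.

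RpL36A, a protein of the large subunit near the tRNA exit site, was called lower in 1 comparison with WT. It had 648 and 651 CPM in the libraries labelled otk2 RNAi wnt4 RNAi and 770 and 759 CPM in WT (-0.24 ± 0.10, edgeR adjusted p = 0.067), and lost the call without any 1 of the 4 libraries. Over all 9 comparisons with WT, 18 members were never called, and 52 were called only in the libraries labelled otk1 RNAi wnt4 RNAi. The counts of the smaller comparisons moved with 1 library: otk1 RNAi had 1 call without its replicate 2 and 6 without WT replicate 2, otk1 RNAi otk2 RNAi had 2 without its replicate 2 and 4 without WT replicate 1, and otk2 RNAi wnt4 RNAi had 4 without WT replicate 1 and 5 and 6 without its own replicates 1 and 2.

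Among the comparisons between knockdown groups, the libraries labelled otk2 RNAi wnt4 RNAi against otk2 RNAi showed 3 members higher (RpS10a, RpL37-2 and RpS3A) and 2 lower (among them RpL36A), beside 14.1% and 6.75% of all genes, and 1 or 2 calls in any fit that left out a library. RpL36A had 648 and 651 CPM there against 823 and 905 CPM in otk2 RNAi (-0.41 ± 0.10, edgeR adjusted p = 0.018). In otk1 RNAi otk2 RNAi against otk2 RNAi, RpL37-2 (1.78 ± 0.36) and RpS10a (1.36 ± 0.30) were higher, beside 3.59% of all genes higher and 5.09% lower (8.68% in all), and RpL37-2 alone (1.92 ± 0.36) was higher in otk1 RNAi against UAS-otk1, beside 2.4% higher and 1.16% lower (3.56% in all). Against otk2 RNAi both calls were lost without otk2 RNAi replicate 1, and 1 was lost without otk2 RNAi replicate 2 or otk1 RNAi otk2 RNAi replicate 1, and against UAS-otk1 the call was lost without UAS-otk1 replicate 2. In the test across all 10 groups, 45 members passed, or 50%, beside 64.1% of all genes.

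The 4 members with the fewest counts had the 4 largest folds in the libraries labelled wnt4 RNAi. RpL37-2, the second copy of a large subunit protein whose main form is RpL37-1, had 2.40 and 3.99 CPM in the libraries labelled otk1 RNAi wnt4 RNAi, 3.19 and 2.45 CPM in those labelled wnt4 RNAi, 1.46 and 1.85 CPM in those labelled otk2 RNAi wnt4 RNAi, 2.95 and 2.55 CPM in otk1 RNAi, 3.11 and 2.29 CPM in otk1 RNAi otk2 RNAi, and 0.527 and 0.687 CPM in WT. In these 5 groups no library overlapped WT. The log2 fold changes were 2.39, 2.21, 1.44, 2.17 and 2.15 (SE 0.37 each, edgeR adjusted p between 0.00015 and 0.0072), and the call held in each of the 4 fits without a library in all 5 comparisons. With the stage score in the fit it held in the libraries labelled otk1 RNAi wnt4 RNAi and wnt4 RNAi and not in the other 3. In otk2 RNAi the gene was at 0.650 and 0.913 CPM and in UAS-otk1 at 0.894 and 0.556 CPM. In UAS-otk1 UAS-wnt4 it was not called, but both libraries lay above WT as well (7.16 and 5.83 TPM against 3.14 and 4.42 TPM). Its log2 fold change there was 0.94.

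RpS10a (BDGP6, 3R:27652760-27653363, plus strand), the rare copy of a small subunit protein, was called higher in the same 5 groups. It had 2.26 and 2.77 CPM in the libraries labelled otk1 RNAi wnt4 RNAi, 2.99 and 2.68 CPM in those labelled wnt4 RNAi, 1.6 and 2.38 CPM in those labelled otk2 RNAi wnt4 RNAi, 1.55 and 1.72 CPM in otk1 RNAi, 2.08 and 2.62 CPM in otk1 RNAi otk2 RNAi, and 0.944 and 0.687 CPM in WT. The log2 fold changes were 1.62, 1.79, 1.28, 1.00 and 1.52 (SE 0.30 each, edgeR adjusted p between 0.00056 and 0.026). Only the call in otk1 RNAi was lost on leaving out a library, WT replicate 2 or its own replicate 2. Against otk1 RNAi, the libraries labelled otk1 RNAi wnt4 RNAi differed by 0.62 (adjusted p = 0.14) for RpS10a and by 0.22 (adjusted p = 0.71) for RpL37-2. In UAS-wnt4 RpS10a was not called, but both libraries lay above WT (3.97 and 3.04 TPM against 2.77 and 2.12 TPM). Its log2 fold change there was 0.65.

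RpS19b and RpL22-like, both known from the germ line, rose in fewer groups. RpS19b had 4.03 and 4.02 CPM in the libraries labelled wnt4 RNAi, 3.62 and 5.23 CPM in otk1 RNAi otk2 RNAi and 3.39 and 3.26 CPM in those labelled otk2 RNAi wnt4 RNAi, against 2.19 and 1.80 CPM in WT. The log2 fold changes were 1.01 ± 0.31, 1.15 ± 0.31 and 0.73 ± 0.31 (edgeR adjusted p = 0.015, 0.012 and 0.064), and the last was lost in all 4 fits without a library. RpL22-like had 2.12 and 4.41 CPM in the libraries labelled wnt4 RNAi and 1.47 and 2.7 CPM in those labelled otk1 RNAi wnt4 RNAi, against 1.28 and 0.572 CPM in WT (1.81 ± 0.50, adjusted p = 0.0088, and 1.17 ± 0.50, adjusted p = 0.062), with libraries far apart within each of the 3 groups. The first call was lost without wnt4 RNAi replicate 2, and the second without replicate 2 of otk1 RNAi wnt4 RNAi or of WT. The mean of these 4 genes over the libraries was 50.3 to 95.8 counts, and in no library did any of them exceed 0.442% of the summed TPM with its partner (RpL37-2 in otk1 RNAi replicate 1). Egg and pole cell markers, summed, were at 953 and 918 CPM in the libraries labelled otk1 RNAi wnt4 RNAi, 1041 and 1095 CPM in those labelled wnt4 RNAi, and 602 and 844 CPM in WT, and in otk1 RNAi, otk1 RNAi otk2 RNAi and the libraries labelled otk2 RNAi wnt4 RNAi they ran between 940 and 1288 CPM. Of 12 such markers 5 were called higher and 1 lower in the libraries labelled otk1 RNAi wnt4 RNAi, 7 higher and 1 lower in those labelled wnt4 RNAi, and 8 higher and 0 lower in each of the other 3 groups, and their part in these values was not tested. Of all genes tested, 30.9% were higher in the first group, 29.7% in the second and between 21% and 27.7% in the other 3. Where neither RpL37-2 nor RpS10a was called, the summed egg and pole cell markers were not all lower. They were at 1111 and 1151 CPM in UAS-otk1 and at 950 and 884 CPM in UAS-otk1 UAS-wnt4. In otk2 RNAi they were at 881 and 933 CPM, and in UAS-wnt4 at 634 and 977 CPM. Of the 19 testis markers only 3 had a mean of 10 counts or more, and 2 were at 0 in all libraries.

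**Figure D3:**
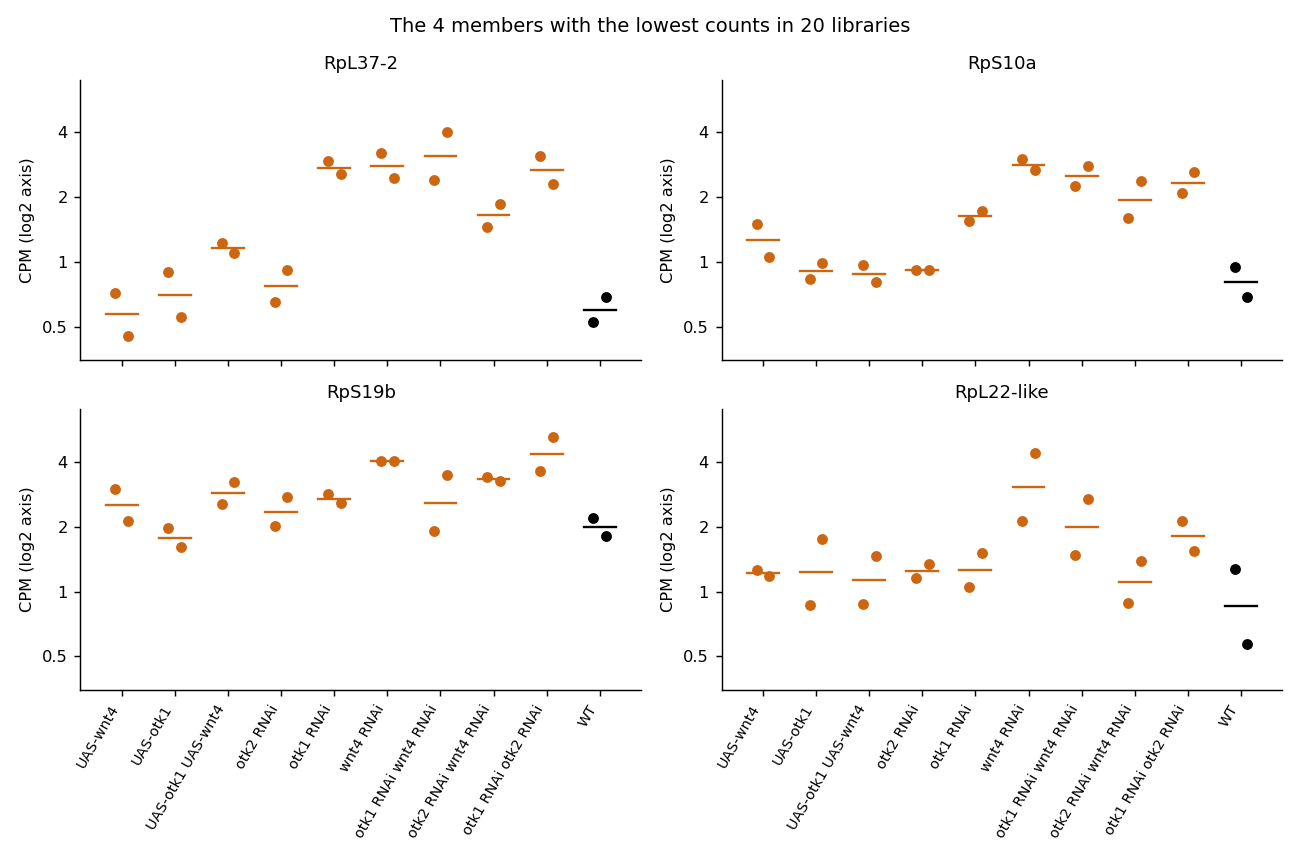
CPM on a log2 axis of the 4 members with the lowest mean counts in each of the 20 libraries, with group means as lines and WT at the right. RpL37-2 and RpS10a lie above WT in all libraries of otk1 RNAi, otk1 RNAi otk2 RNAi and the 3 groups labelled with wnt4 RNAi. So do RpL37-2 in UAS-otk1 UAS-wnt4 and RpS10a in UAS-wnt4, where neither was called.

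Among the suffix copies of middle level, RpL24-like was called higher in 4 comparisons with WT and RpL7-like in 3, while RpS14b and RpL34a were each called in 2. The yeast relatives of RpL24-like and RpL7-like are not parts of the finished ribosome but help to assemble the large subunit. RpL24-like (BDGP6, 3R:11430740-11431582) had 396 and 485 CPM in the libraries labelled otk1 RNAi wnt4 RNAi against 251 and 243 CPM in WT (0.83 ± 0.15, edgeR adjusted p = 0.00044), and was also higher in those labelled wnt4 RNAi (381 and 309 CPM), in those labelled otk2 RNAi wnt4 RNAi (331 and 331 CPM) and in otk1 RNAi otk2 RNAi (309 and 363 CPM). RpL7-like, whose reads may be shared with CG34164 on the same strand, had 215 and 244 CPM, 201 and 179 CPM and 177 and 184 CPM in the 3 groups labelled with wnt4 RNAi (otk1 RNAi wnt4 RNAi, wnt4 RNAi, otk2 RNAi wnt4 RNAi), against 138 and 151 CPM in WT, with log2 fold changes of 0.66, 0.39 and 0.32 (SE 0.11 each). RpLP0-like, whose yeast relative takes the place of P0 during assembly, was called in the libraries labelled otk1 RNAi wnt4 RNAi only (129 and 189 CPM against 114 and 94.1 CPM, 0.62 ± 0.23, adjusted p = 0.038), and not without replicate 2 of these libraries or WT replicate 2. The calls of RpL24-like and RpL7-like in the libraries labelled otk1 RNAi wnt4 RNAi held in all 4 fits without a library, and the others lost theirs in 1 or 2 of the 4.

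In the RpS10 and RpS14 pairs the abundant and the rare copy rose together. RpS10b had 3095 and 4237 CPM in the libraries labelled otk1 RNAi wnt4 RNAi, 2917 and 2432 CPM in those labelled wnt4 RNAi and 1996 and 1875 CPM in WT, with log2 fold changes of 0.92 ± 0.16 (edgeR adjusted p = 0.00034) and 0.47 ± 0.16 (0.026), the second lost without wnt4 RNAi replicate 1. RpS14a (BDGP6, X:7933742-7934677) and RpS14b (X:7934898-7935792) lie side by side and shared reads in all libraries. RpS14b had 396 and 455 CPM in the libraries labelled otk1 RNAi wnt4 RNAi and 276 and 246 CPM in WT (0.71 ± 0.13, adjusted p = 0.00050), and RpS14a had 2117 and 2379 CPM against 1658 and 1344 CPM (0.58 ± 0.13, adjusted p = 0.0021). In the libraries labelled wnt4 RNAi RpS14b was higher as well (0.37 ± 0.13, adjusted p = 0.029), and not without their replicate 1 or WT replicate 2. The share of RpS14b in the pair's TPM was 17.7% and 18% in these libraries and 16.1% and 17.4% in WT.

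Another 6 suffix copies were called in the libraries labelled otk1 RNAi wnt4 RNAi and, apart from RpL34a in the libraries labelled wnt4 RNAi, in no other comparison with WT. RpS28b (0.65 ± 0.21), RpL34a (0.39 ± 0.11), RpS15Ab (0.39 ± 0.15), RpS15Aa (0.37 ± 0.14), RpL10Ab (0.32 ± 0.12) and RpL34b (0.24 ± 0.11) were higher there, with edgeR adjusted p between 0.0081 and 0.087. Of these 6, RpL34a alone kept the call in all 4 fits without a library. RpL34b turned to -0.03 under total counts alone and to -0.07 with the length trend removed. RpS19a, the main form beside RpS19b, had 1322 and 1619 CPM against 1225 and 1307 CPM in WT (0.22 ± 0.11, adjusted p = 0.11).

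Since the members are short, their fold changes were set against the trend of fold change on effective length over all genes tested (lowess). In the libraries labelled otk1 RNAi wnt4 RNAi the trend at the members' lengths had a median log2 of 0.20, and the members' median lay 0.21 above it, with 75 of 90 above and 15 below. The suffix copies lay 0.41 above and the main copies 0.20 above. RpL26 was nearest to the trend (0.20 against 0.20), and RpL37-2 was farthest above it (2.39 against 0.21). Once each library's own length trend was removed through offsets, 32 members rose and 3 fell.

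In the libraries labelled wnt4 RNAi the trend at the members was -0.03, and 87 of 90 members lay above it, by a median of 0.19. In otk1 RNAi the trend and the members' median were both 0.02. In UAS-otk1 UAS-wnt4 the trend was 0.23 and the members' median lay 0.10 below it, with RpS4 farthest below, and in UAS-otk1 the trend was -0.13 and the members lay 0.03 above it. The members' median lay above the curve by more than 0.1 in the 3 groups labelled with wnt4 RNAi (0.21, 0.19 and 0.11 above) and by less in the other groups, where it ran between -0.10 and 0.03.

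**Figure D4:**
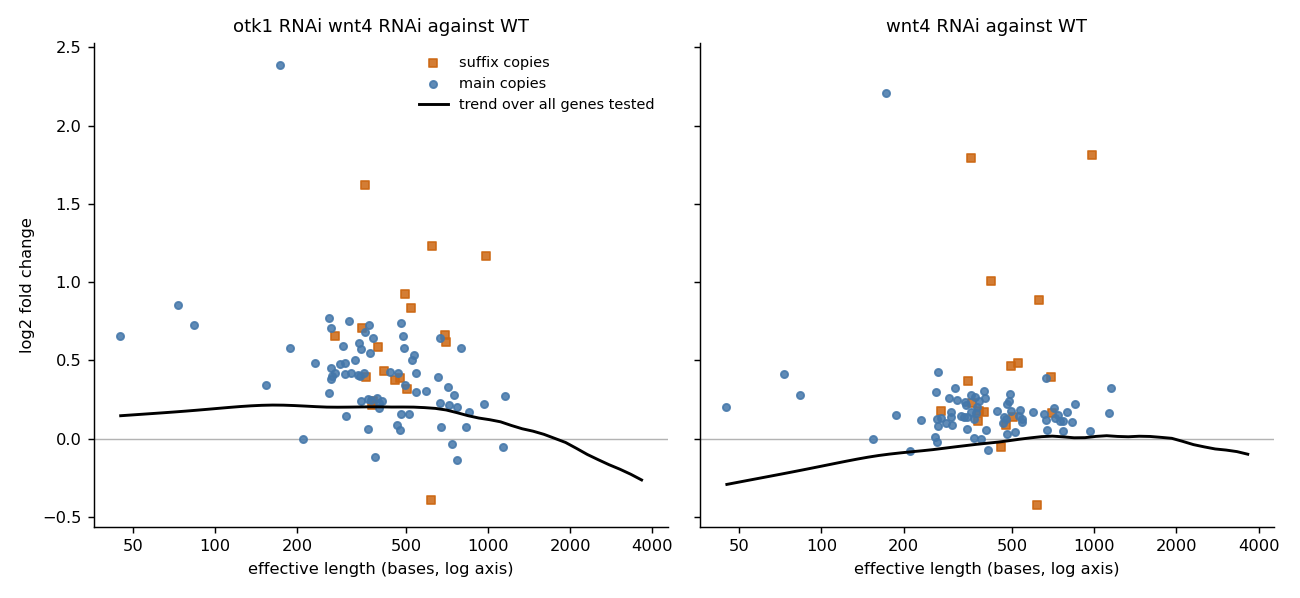
log2 fold change against WT (vertical axis) of the 90 genes by effective length in bases (log axis), for the otk1 RNAi wnt4 RNAi group (left) and the wnt4 RNAi group (right), with the lowess trend over all 11154 genes tested as a line. Members lie above the line by a median of 0.21 at the left and 0.19 at the right.

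Of the other genes of the translation machinery, many were called in both directions. In the libraries labelled otk1 RNAi wnt4 RNAi, against WT 19 of 36 translation factors rose and 9 fell (median log2 0.25), 13 of 30 ribosome biogenesis genes were higher and 7 lower (0.12), and 26 of 72 mitochondrial ribosomal protein genes were higher and 12 lower (0.20). Over all genes tested, 30.9% were higher there and 31.4% lower, so these list counts are to be read beside a large background. Higher were eEF1delta (1.06 ± 0.14), a part of the elongation factor exchange complex, and the initiation factor eIF5 (0.87 ± 0.09), and lower was eIF2gamma (-0.38 ± 0.09). Among biogenesis genes Surf6 (1.34 ± 0.19), Nopp140 (0.98 ± 0.18) and ppan (0.83 ± 0.12) were higher, while the RNA polymerase I subunits Polr1A (-0.79 ± 0.15) and Polr1B (-0.86 ± 0.16) were lower. Of 17 growth regulators 6 were higher and 5 lower, with Tsc1, a brake on TOR, and M1BP, which binds promoters of ribosomal protein genes, higher (1.26 ± 0.20 and 0.98 ± 0.16) and Myc, an activator of ribosome production, lower (-1.04 ± 0.12). All adjusted p of these genes in edgeR's test were between 1.48e-05 and 0.00225.

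In the libraries labelled wnt4 RNAi 17 translation factors were higher and 5 lower (0.21), 14 biogenesis genes were higher and 6 lower (0.19), and 7 mitochondrial ribosomal protein genes were higher and 16 lower (-0.08). Over all genes tested, 29.7% were higher there and 29.5% lower. Nopp140 (0.96 ± 0.18), Surf6 (0.86 ± 0.19) and Tsc1 (1.11 ± 0.20) were again higher and Myc lower (-0.52 ± 0.12). Thus, under TMM scaling, the mitochondrial ribosomal protein genes had medians of different sign in these 2 groups, while the cytosolic ones had 0.41 and 0.16. Under total counts alone the cytosolic medians were 0.12 and -0.06, also of different sign. Medians of the mitochondrial and the other lists are given under TMM scaling only, so this contrast is limited to that scaling.

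Many markers of late embryonic tissue were lower in the 5 knockdown groups other than otk2 RNAi. Summed muscle markers were at 6682 and 4563 CPM in the libraries labelled otk1 RNAi wnt4 RNAi, 4075 and 5276 CPM in those labelled wnt4 RNAi, and 14402 and 9121 CPM in WT, and 15 and 16 of 16 were called lower, none being at 0. Of 14 neuron markers 13 and 12 were lower, and of 55 cuticle genes 27 and 24 were lower. In otk1 RNAi 16 muscle, 12 neuron and 45 cuticle genes were lower, and in otk1 RNAi otk2 RNAi 16, 11 and 42, while the median log2 fold change of the ribosomal protein genes was 0.02 in otk1 RNAi and 0.08 in otk1 RNAi otk2 RNAi. These counts were 16, 13 and 23 in the libraries labelled otk2 RNAi wnt4 RNAi. Of all genes tested, 31.4% were lower in the libraries labelled otk1 RNAi wnt4 RNAi and 29.5% in those labelled wnt4 RNAi. In otk1 RNAi, otk1 RNAi otk2 RNAi and the libraries labelled otk2 RNAi wnt4 RNAi, 24.5%, 24.4% and 27% were lower. In otk2 RNAi 0 muscle, 0 neuron and 1 cuticle gene were lower, and in UAS-otk1 UAS-wnt4 there were 2, 1 and 5. Cpr is in the cuticle list by its symbol only and encodes cytochrome P450 reductase. Of the 96 cuticle genes 2, Cpr65Ax1 and Lcp65Ab2, were at 0 in all libraries. A stage score, the mean log2 CPM of cuticle, muscle and neuron genes minus that of egg and early embryo genes, was between -3.44 and -0.94 in the libraries of the other groups, against 0.29 and -1.05 in WT. With it in the fit 50 members rose and 1 fell in the libraries labelled otk1 RNAi wnt4 RNAi, 2 were higher in those labelled wnt4 RNAi, and 0 were called in otk1 RNAi and in otk1 RNAi otk2 RNAi. The score was built from marker genes of these same libraries, many of them called between the groups, so these fits cannot separate embryo age from the group. The part of embryo age in the results was not tested.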

How the data were processed

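Total RNA of 20 embryo libraries (10 groups of 2) was measured. According to the deposited files and the submitters' processing notes, STAR 2.7.1a, RSEM 1.3.1 and the build dm6 were used by the authors, and RSEM gives expected counts (estimated, not always whole), TPM and effective lengths per gene. The sources used here do not say whether counting used strand. Expected counts were rounded to whole numbers, 426 genes of ribosomal, mitochondrial, snoRNA and other removed types (5.98% to 10.9% of counts) and genes under a mean of 10 counts were left out, and 11154 genes were tested with edgeR 4.0.16 (R 4.3.3, limma 3.58.1) by the quasi-likelihood F-test with TMM scaling, 1 fit over all 20 libraries and Benjamini-Hochberg adjustment at 10%. The deposited expected counts summed to between 33641557 and 41753919 per library. Gene positions come from Ensembl release 115 (BDGP6, the assembly of dm6).

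Named by rule were, apart from a few members that count in the totals and are not reported here by name, the suffix copies, up to 4 main copies with the largest rise and 4 with the largest fall per comparison, the members with the highest and lowest TPM, the stalk genes, those nearest and farthest from the length trend, the targeted genes, and up to 4 genes per other list. Members and lists were chosen with earlier results of these data known. Alternatives were DESeq2 1.42.0, RLE scaling, no low-count filter, an adjusted p of 0.05, a stage covariate, removal of the length trend (lowess, span 0.3), fits of the compared groups only, a replicate block, leaving out each library and, chosen after seeing the data, scaling by total counts alone. On simulated counts for the comparison of otk1 RNAi wnt4 RNAi with WT (11154 genes), 11, 29, 45 and 46 of 50 genes changed 1.5-, 2-, 4- and 8-fold were recovered, with 15 false calls. Tables were built in pandas 2.3.3 and numpy 2.4.6 under Python 3.11.15, and plots in matplotlib 3.10.9.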

Additional observations from a re-analysis of the deposited data

Results flagged for a closer look

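For 8 ribosomal protein genes the difference between libraries with and without the wnt4 RNAi label itself differed between embryos with and without otk1 RNAi (edgeR interaction term, Benjamini-Hochberg adjusted p under 0.1, with 11.8% of all genes higher and 7.93% lower). RpL37A had the largest positive value, 0.69 ± 0.15, and the positive values also included RpS15Aa with 0.62 ± 0.20, RpL12 with 0.48 ± 0.16, RpL9 with 0.42 ± 0.15 and RpL27 with 0.33 ± 0.12. The negative values were -1.99 ± 0.50 for RpL37-2 and -1.17 ± 0.42 for RpS10a. RpS15Aa differed by 0.57 with otk1 RNAi in both groups and by -0.05 without it. At an adjusted p of 0.05 RpL12, RpL9, RpL27, RpS15Aa and RpS10a lost the call. RpL9 and RpL27 also lost it under RLE scaling. With the length trend removed, RpL37A, RpL12, RpL9 and RpL27 lost it. The call of RpS10a was lost without any 1 of the 8 libraries, and none of the 8 passed once the stage score entered the fit.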

How the results depend on the processing

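Of the 16 counts of members called, all stayed within 1.5 times of the value given under DESeq2, RLE scaling and the replicate block. Under total counts alone the counts were 12 (5 higher and 7 lower) in wnt4 RNAi, 27 (20 and 7) in otk1 RNAi wnt4 RNAi, 20 (3 and 17) in otk2 RNAi wnt4 RNAi, 18 (17 and 1) against otk1 RNAi, 12 (2 and 10) against otk2 RNAi and 20 across groups. At an adjusted p of 0.05 they were 12 in wnt4 RNAi, 3 in otk2 RNAi wnt4 RNAi against otk2 RNAi and 2 for the otk1 interaction. With the stage covariate they were 2 in wnt4 RNAi, 0 in otk1 RNAi, 2 in otk2 RNAi wnt4 RNAi, 0 in otk1 RNAi otk2 RNAi, 1 in the last against otk2 RNAi and 0 for the otk1 interaction. With the length trend removed they were 7 in otk1 RNAi, 35 in otk1 RNAi wnt4 RNAi, 20 in otk2 RNAi wnt4 RNAi, 11 in otk1 RNAi otk2 RNAi, 18 against otk1 RNAi, 11 and 4 in otk2 RNAi wnt4 RNAi and otk1 RNAi otk2 RNAi against otk2 RNAi, 4 for the interaction and 27 across groups. With only the compared groups in the fit they were 8 in wnt4 RNAi, 1 in otk1 RNAi, 32 in otk1 RNAi wnt4 RNAi, 6 in otk2 RNAi wnt4 RNAi, 3 in otk1 RNAi otk2 RNAi, 2 and 1 in the comparisons with otk2 RNAi, 2 against UAS-otk1 and 2 for the interaction, and without a filter the interaction had 4. Apart from the fits with fewer libraries, the cause of these moves was not tested.

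Leaving out 1 library gave 0 to 2 calls in UAS-otk1, 0 to 2 in otk2 RNAi, 11 to 22 in wnt4 RNAi, 1 to 6 in otk1 RNAi, 33 to 64 in otk1 RNAi wnt4 RNAi, 4 to 9 in otk2 RNAi wnt4 RNAi, 2 to 7 in otk1 RNAi otk2 RNAi, 20 to 55 against otk1 RNAi, 1 to 2 in otk2 RNAi wnt4 RNAi and 0 to 2 in otk1 RNAi otk2 RNAi against otk2 RNAi, 0 to 1 against UAS-otk1, 0 to 15 for the otk1 interaction and 27 to 50 across groups. Signs turned for RpL4 in wnt4 RNAi with the stage covariate (-0.0419), RpLP0 under total counts (-0.0575 against WT and -0.00062 against otk1 RNAi), RpL34b under total counts (-0.0292) and with the length trend removed (-0.0698), and RpL34a against otk1 RNAi with the length trend removed (-0.00045). Of 79 tests named on 32 members, DESeq2 and the replicate block kept 79 calls each, RLE scaling 75, no filter 72, an adjusted p of 0.05 58, removal of the length trend 52, total counts 43, the compared groups alone 45 and the stage covariate 34.

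With replicate number as a block 70 members (69 higher and 1 lower) were called in otk1 RNAi wnt4 RNAi against WT. The numbers pair no samples by their labels. Over 45 pairs of groups the correlation of same-numbered deviations ran between -0.22 and 0.55 (median 0.07, 17 over 0.1). Whether some same-numbered libraries share more than a number was not tested.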
